A study of Homo sapiens with 2 samples.

Results

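The day 10 library held 324 cells that the authors annotated as cranial placode (CP), chosen here by that annotation alone. They were 4.44% of 7295 kept day 10 cells (Clopper-Pearson interval 3.98 to 4.94) and belong to a series of 15947 deposited cells in 2 libraries. Beside them stood 4921 enteric neural crest cells (ENCCs), 1811 neuro-epithelial progenitors (NEP) and 239 non-neural ectoderm cells (NNE), while 2332 cells had been removed by the authors for low quality. The annotation was made from the expression of these same cells, so a difference between CP and another type describes the annotation and was not tested.

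The cells were grown from the human pluripotent line H9, which derives from an embryo, as an adherent culture given BMP4, the TGF-beta receptor inhibitor SB431542 and the GSK3 inhibitor CHIR 99021, and later retinoic acid. The day 15 library, used below only for values side by side, came from floating crestospheres, aggregates kept in medium with FGF2 and CHIR 99021. There was 1 library per stage, made of 2 pooled repeats that the files do not separate, so no test between types or stages was run. Levels are unique molecular identifier (UMI) counts summed over the cells of a type and scaled to 1000000 UMIs of that type (CPM), and each interval is an exact 95% interval that covers counting error only.

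Cranial placodes are thickenings of the head ectoderm that give rise to sensory organs and to many neurons of the cranial sensory ganglia. EYA2 is a co-activator of the placodal ectoderm, and the bHLH factors NEUROG1, NEUROD1, NEUROD4 and NHLH1 act in sequence as neuroblasts leave it. ISL1 and POU4F1 are homeodomain factors of young sensory neurons, and STMN2 and the neurofilaments appear as axons grow. Sensory neurons of the trunk, and part of those of the head, come from the neural crest and use many of the same factors.

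The 4 markers of the label lie at separate loci, of which 3 are given here with GENCODE v29 coordinates on GRCh38. ISL1 is at chr5:51383391-51394738 on the plus strand, NHLH1 at chr1:160367067-160372848 on the plus strand and NEUROD1 at chr2:181673088-181680876 on the minus strand. The E-box, a short sequence bound by bHLH factors, was searched on both strands in RefSeq promoters of GRCh38.p14, from 250 bases before to 50 bases after each start. Upstream windows of 100 bases are shown for 3 transcription factor genes whose levels were high in CP, since these promoters carry an E-box core, which is in capitals.
NHLH1: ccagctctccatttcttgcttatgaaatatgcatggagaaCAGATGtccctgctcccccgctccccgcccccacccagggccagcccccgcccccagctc
ISL1: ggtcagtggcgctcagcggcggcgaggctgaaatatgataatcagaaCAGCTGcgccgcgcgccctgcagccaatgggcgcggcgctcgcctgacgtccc
POU4F1: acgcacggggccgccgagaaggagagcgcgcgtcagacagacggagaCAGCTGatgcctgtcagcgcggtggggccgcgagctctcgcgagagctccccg

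These windows are chr1:160366821-160366920 and chr5:51383257-51383356 on the plus strand, and chr13:78603615-78603714 on the minus strand. Of 35116 promoters, 14.7% held CAGATG, which reads CATCTG on the other strand. The share was 17.9% for CAGCTG, which reads alike on both strands. Of the 20 genes named below as highest in CP, 10 were in the promoter table, and CAGCTG occurred in 5 of them and CAGATG in 1. The promoters of NEUROG1 and NEUROD1 held neither sequence in this window. These matches are letters in a window and were not tied to binding.

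CP cells were as deeply sequenced as the other types, with medians of 7438 UMIs and 2043.5 genes per cell against 7004 to 7349 UMIs and 1915 to 2210 genes. Their median mitochondrial share was 3.57%, against 3.49% to 3.67%. The ribosomal share of UMIs was 42.2%, between the 44.7% of ENCCs and the 36.2% to 36.8% of NNE and NEP cells. The 2 libraries shared 102 cell barcodes, of which 3 were CP cells at day 10. The authors set upper bounds on genes and UMIs, which limit doublets. Their methods also describe antibody tags on pooled cells and demultiplexing, and do not state whether that step removed doublets. Doublets that remained were not called here.

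Over all CP cells together, the label held for its 4 markers. A subcluster of 78 CP cells, described below, had the lowest level of each among the 5 CP subclusters. There ISL1 was at 33.4 CPM, NEUROD1 at 3.52 CPM, NHLH1 at 72.1 CPM and STMN2 at 28.1 CPM. With each cell thinned to 3000 UMIs, 64.1% of 323 CP cells (58.6 to 69.3) had a UMI of ISL1, NEUROD1, NHLH1 or STMN2. The shares were 1.32% of ENCCs, 1.06% of NEP cells and 0 of 235 NNE cells, where a count of 0 leaves room for 1.56%. Unthinned, the shares were 82.1%, 3.17%, 2.48% and 0.837%. The lower end of the CP interval lay above the share in every other type, also without thinning, at like median depth.

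NEUROD1 was at 164 CPM in CP (149 to 181), 0.487 CPM in ENCCs, 0.142 CPM in NEP cells and 0 UMIs in NNE cells. NHLH1 was at 199.8 CPM in CP (183 to 218) and at 2.03, 0.855 and 0 CPM in the same order. ISL1 was at 112 CPM (99.0 to 126), against 1.95, 0.427 and 0.542 CPM. For each of these 3 genes, the CP interval lay above the value of every other type. STMN2, a tubulin-binding protein of growing axons, was at 274 CPM (254 to 295) against 0.677, 2.14 and 0.542 CPM.

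Of 9398 genes with a mean of at least 5 CPM over the 4 types, 166 (1.77%) were at least 2-fold higher in CP than in each other type on the log2(CPM + 1) scale, and 80 (0.851%) were at least 2-fold lower. Pairwise, 4.54% of the tested genes were at least 2-fold higher in CP than in ENCCs and 2.35% lower. Against NEP cells 4.15% were higher and 12.5% lower, and against NNE cells 7.48% were higher and 12.9% lower. CP was thus past 2-fold from ENCCs at fewer genes than from NEP or NNE cells.

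**Figure D1:**
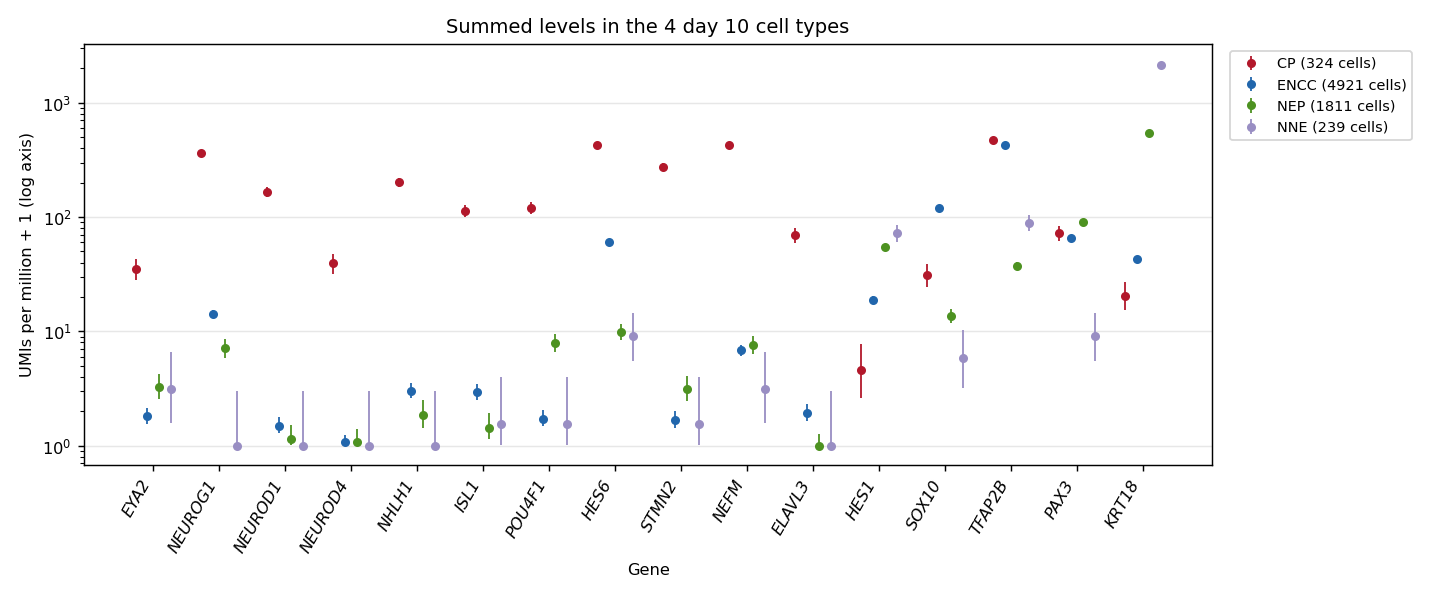
Summed level of 16 genes (CPM + 1, log axis) in the 4 day 10 cell types, with exact 95% Poisson intervals for counting error. Placode and neurogenic genes such as EYA2 (33.9 CPM in CP) and NEUROG1 (362 CPM) stand highest in CP, HES1 (3.59 CPM) stands lowest there, and TFAP2B is shared with ENCCs.

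Among the 24 placode regulators, 17 had a UMI in CP, 11 passed the filter and 2 were at least 2-fold above each other type, EYA2 among them. The median log2 ratio of CP over the highest other type was -0.32 for the 11, against -0.35 for all genes tested. EYA2 was at 33.9 CPM (27.1 to 41.9) in CP, against 0.812 CPM in ENCCs, 2.28 CPM in NEP cells and 2.17 CPM in NNE cells. At 3000 UMIs, 10.8% of CP cells had an EYA2 UMI, against at most 0.851% in the other types.

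The rest of the placode list did not single out CP. SIX4 was at 12.0 CPM in CP and 10.3 CPM in NNE cells, a log2 ratio of 0.20, and EYA1 rested on 12 UMIs in CP. DLX3, a gene of the early non-neural and placodal border, had 1 UMI in CP and 39.5 CPM in NNE cells. DLX5 had 3 UMIs in CP and 16.2 CPM in NNE cells. DLX6, FOXI3, IRX1, PAX2 and PAX8 had 0 UMIs in CP, where the floor of 3 UMIs is 1.20 CPM. PAX3, which marks the ophthalmic trigeminal placode and also the crest and dorsal neural tube, was at 71.4 CPM in CP, 65.0 CPM in ENCCs and 89.5 CPM in NEP cells.

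Among the 30 lists, sensory neurogenesis factors had the largest median log2 ratio of CP over the highest other type. The lists were chosen with earlier results of these data known, so this rank is a description and was not tested. The filter is a mean that includes CP, so a member near 0 in every other type passed only through its level in CP. The rank, the counts past 2-fold and the median of this list therefore follow in part from the filter. Of 37 members, 36 were in the matrix, 30 had a UMI in CP, 12 passed the filter and 10 were at least 2-fold above each other type. Of all genes tested, 1.77% were. The median log2 ratio of the 12 over the highest other type was 4.37. NEUROG1, a bHLH factor that starts sensory neurogenesis in placodes and crest, was at 362 CPM (339 to 386) in CP and in 57.9% of thinned CP cells. It was at 13.2 CPM in ENCCs, 6.13 CPM in NEP cells and 0 UMIs in NNE cells, and its log2 ratio over ENCCs was 4.68. NEUROG2, its relative of the epibranchial placodes, had 2 UMIs in all CP cells.

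NEUROD4 was at 38.3 CPM (31.0 to 46.8) in CP and at most 0.0812 CPM elsewhere. POU4F1 was at 119 CPM (106 to 134), with the next level 6.91 CPM in NEP cells. INSM1, a zinc-finger factor of neurons leaving the cell cycle, was at 27.5 CPM (21.4 to 34.8) and ONECUT2 at 146 CPM (131 to 161). TLX2 was higher in NEP cells, at 118 CPM against 23.9 CPM in CP. TLX3, DRGX, EBF2 and ST18 had 4 or 5 UMIs each in CP and 0 in every other type.

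Several Notch genes were high in CP and HES1 was low. Notch signalling holds neighbouring progenitors back while a cell that makes ligand goes on to become a neuron. Of 24 members, 15 passed the filter, of which 5 were at least 2-fold above each other type and 1 below. The ligand DLL1 was at 25.5 CPM (19.7 to 32.6) and DLL3, a ligand-like inhibitor, at 63.8 CPM (54.3 to 74.5), with 4.84 and 11.8 CPM as the next levels. CBFA2T2, a transcriptional co-repressor, was at 47.5 CPM (39.3 to 56.8) against 10.6 CPM in NEP cells. MFNG, a glycosyltransferase that modifies Notch, was at 75.4 CPM (65.0 to 86.9) against 1.87 CPM in ENCCs. HES6, which opposes HES1, was at 423 CPM (398 to 449) in CP, 59.8 CPM in ENCCs, 8.98 CPM in NEP cells and 8.12 CPM in NNE cells. HES1, the classic target that represses neuronal genes, was at 3.59 CPM (1.64 to 6.81) in CP against 17.9, 53.6 and 71.0 CPM. HES5 had 0 UMIs in CP and 2 or fewer in every other type.

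HES1 led the genes lowest in CP, with a log2 ratio of -2.05 to ENCCs, the lowest of the others. The other 9 genes of the 10 lowest were ACTA2, ANXA11, LASP1, PHLDB1, TPD52L1, SYPL1, PHACTR2, FLRT3 and ERLIN1, with log2 ratios from -1.99 to -1.15. ACTA2 (smooth muscle actin) was at 4.39 CPM in CP and 20.4 to 37.9 CPM elsewhere, and LASP1, an actin-binding protein, at 7.18 CPM and 20.7 to 33.0 CPM. These rest on 9 to 60 UMIs in CP.

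Neuronal genes were present in CP at several steps of maturation. Of 37 cytoskeletal and RNA-binding members, all had a UMI in CP, 30 passed the filter and 18 were at least 2-fold above each other type, with a median log2 ratio of 1.89. NEFM, the medium neurofilament, was at 424 CPM (398 to 449.8) against at most 6.55 CPM elsewhere. DCX, a microtubule protein of migrating neurons, was at 106 CPM (94.1 to 120.1) and TAGLN3 at 131 CPM, with next levels of 7.12 and 14.7 CPM. ELAVL3, a neuronal RNA-binding protein, was at 68.2 CPM (58.4 to 79.2) and had 35 UMIs in all ENCCs. TUBB3, the neuronal tubulin, was at 23.9 CPM against 2.79 CPM in ENCCs. RBFOX3, a gene of mature neurons, had 3 UMIs in CP.

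Of 29 synapse and secretion members, 13 passed the filter and 6 were at least 2-fold above each other type. SYP, a synaptic vesicle protein, was at 33.9 CPM (27.1 to 41.9) against at most 1.03 CPM, and SYT4 at 29.5 CPM (23.2 to 37.1) against at most 0.135 CPM. SCG2 and SCG3, granins of secretory granules, were at 22.3 and 60.6 CPM. The transmitter genes were near 0, with 7 UMIs of SLC17A6, the vesicular glutamate transporter of many sensory neurons, and 0 UMIs of GAD2, SLC32A1 and CHAT. Among 28 ion channels and sensory receptors 1 passed the filter and none was past 2-fold above each other type, while CHRNA3, a nicotinic receptor subunit, was at 15.2 CPM in CP against at most 0.427 CPM. NTRK3, the neurotrophin-3 receptor, rested on 22 UMIs and NTRK2 on 0. NGFR, the low-affinity neurotrophin receptor, was at 109 CPM in CP and 105 CPM in ENCCs.

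The 20 genes highest in CP by the fixed rule included, beside NEUROD1, STMN2, NHLH1, NEFM, ISL1, NEUROD4, ELAVL3 and NEUROG1, the genes PPP1R17, USP18, SEPT4, ONECUT2, SYT4, SUSD2, MFNG, CELF3, SCG2, XKR7 and SYP. PPP1R17, an inhibitor of protein phosphatases, was at 83.8 CPM (72.8 to 95.9) against at most 0.542 CPM. USP18, which removes the ubiquitin-like ISG15, was at 63.8 CPM (54.3 to 74.5) against at most 0.855 CPM. SEPT4, a septin, was at 172 CPM (156 to 189) against 4.36 CPM in ENCCs. Log2 ratios over the highest other type ran from 4.10 for SYP to 6.80 for NEUROD1. Outside the rule, CXCR4, the chemokine receptor that guides crest and placode cells, was at 74.2 CPM against 5.22 CPM in ENCCs.

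Crest genes were present in CP, at a lower level than in ENCCs for many of them. Of 22 crest members 21 had a UMI in CP and 18 passed the filter. None of the 18 was 2-fold above each other type, and 9 were at least 2-fold below ENCCs, where 2.35% of all genes were. TFAP2B, an AP-2 factor, was at 473 CPM (446 to 500.3) in CP and 425 CPM in ENCCs. SOX10, the crest and glial factor, was at 29.9 CPM (23.5 to 37.5) against 120 CPM, and 9.29% of thinned CP cells had a UMI against 30.9% of ENCCs and 2.39% of NEP cells. FOXD3 had 9 UMIs, at 3.59 CPM against 18.4 CPM. Within CP, 41 of 59 cells with a SOX10 UMI also had a NEUROG1 UMI, and 10 had a NEUROD1 UMI.

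Lists for single placodes and for other programmes gave fewer tested members. In the trigeminal list 4 of 12 genes passed the filter and 2 were at least 2-fold above each other type, NEUROG1 and POU4F1. In the epibranchial list 3 of 11 genes passed the filter and 1 was at least 2-fold above each other type. None of the 5 otic, 5 lens, 2 retinal and 1 olfactory genes tested was above each other type, and none of 12 pituitary genes passed the filter. Of 24 genes of brain and spinal cord neurons, 17 had 0 UMIs in CP.

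HOX genes, which mark position along the body axis, were higher in CP than in ENCCs. Of 23 HOX genes 6 passed the filter, and all 6 were at least 2-fold above ENCCs in CP, where 4.54% of all genes were. Of the 6, 5 were at least 2-fold below NNE cells, where 12.9% of all genes were. HOXB2, which marks the hindbrain and the head segments behind it, was at 48.7 CPM in CP, 10.3 CPM in ENCCs, 30.1 CPM in NEP cells and 105 CPM in NNE cells. HOXB5 was at 34.3 CPM against 0.0812 CPM in ENCCs, and most of its UMIs came from few cells, given below. Of 12 retinoic acid genes tested, CRABP1 was above each other type, at 997 CPM (959 to 1037) against 254 CPM in NEP cells.

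Genes of the FGF, WNT and BMP pathways were mostly lower in CP than in NEP cells. Of 17 FGF, WNT and BMP genes tested, 14 were at least 2-fold below NEP cells, where 12.5% of all genes were, and 3 were below each other type. These were DUSP6, an FGF target, LEF1, a WNT effector, and ID4, a BMP target, with log2 ratios to the lowest other type of -1.39, -1.16 and -1.04. None of 40 S phase and 52 G2M phase genes tested was past 2-fold from each other type. Of the G2M genes 7 were at least 2-fold below ENCCs, where 2.35% of all genes were. Of 13 cell cycle exit genes 2 were above each other type, CDKN1C at 44.7 CPM and GADD45G at 76.2 CPM. Of 22 axon guidance genes 6 were above each other type, NRP1, PLXNA1, EPHB2, NCAM1, CNTN2 and CXCR4, and of 6 neuropeptide genes SST. None of 7 neurotrophin and RET receptor, 15 stress and 6 pluripotency genes was past 2-fold above each other type.

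Markers of NNE, NEP, mesenchymal, retinal and pituitary cells were low in CP, while the autonomic and enteric set was highest there. Of 14 epithelial genes tested, 13 were at least 2-fold below NNE cells in CP, where 12.9% of all genes were. KRT18 and GATA3 were below each other type. Of 14 neuro-epithelial genes 9 were at least 2-fold below NEP cells, where 12.5% of all genes were. Of 6 mesenchymal genes ACTA2 was below each other type. Of 6 autonomic and enteric genes tested, 2 were above each other type, PRPH among them. The 7 NNE markers summed to 80.6 CPM in CP, 115 CPM in ENCCs and 5499 CPM in NNE cells, with EPCAM at 4 UMIs and CDH1 at 2 UMIs in CP. The 6 NEP markers summed to 124 CPM in CP and 1884 CPM in NEP cells, with LHX2 at 0 UMIs in every type. Of 8 pituitary markers 5 had 0 UMIs in CP, and of 5 retinal markers the sum was 3.59 CPM against 28.0 CPM in NEP cells. The mesenchymal markers TWIST1, PRRX1 and PDGFRA had 0 UMIs in CP. The 6 autonomic and enteric markers summed to 133 CPM (119 to 148) in CP, 62.6 CPM in ENCCs, 8.33 CPM in NEP cells and 7.58 CPM in NNE cells. In that set RET and HAND2 had 0 UMIs in CP, TH had 5 and DBH 1.

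ENCCs left out of the authors' numbered crest subclusters, 256 cells, had little of the CP markers. NEUROD1 was at 1.78 CPM there (0.484 to 4.55), against 0.403 CPM in the 4665 numbered ENCCs. PAX6 was at 458 CPM and WNT2B at 649 CPM in these cells.

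The deposited phases placed 209 CP cells in G1 (64.5%, 59.0 to 69.7), 59 in S and 56 in G2M. The G1 share was 39.0% in ENCCs, 70.0% in NEP cells and 63.2% in NNE cells. Within CP, neurogenic genes and neuronal structural genes differed in how they lay over the phases. NEUROG1 was at 356 CPM (326 to 387) in G1, 367 CPM (316 to 424) in S and 377 CPM (325 to 435) in G2M, with overlapping intervals. NEUROD1 was at 139.5 CPM (121 to 159.7) in G1, 159 CPM (126 to 198) in S and 245 CPM (203 to 293) in G2M, where its interval lay just above the other 2. POU4F1 was at 103, 116 and 172 CPM in the same order.

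STMN2 was at 415 CPM (383 to 448) in G1, 45.8 CPM (29.1 to 68.8) in S and 73.0 CPM (51.1 to 101) in G2M. NEFM was at 626, 63.8 and 168 CPM and DCX at 147, 45.8 and 42.6 CPM. For all 3 genes the G1 interval lay above the others. Of the 686 STMN2 UMIs of CP, 522 lay in 44 cells, described below as subcluster 1, of which 43 were in G1. These cells also held 92 of the 267 DCX UMIs. Whether the phases differ outside these cells was not tested. CDKN1C, an inhibitor that takes cells out of the cycle, was at 66.1 CPM (53.8 to 80.4) in G1 and at 14.0 and 10.1 CPM in S and G2M. MKI67, which marks cycling cells, was at 7.27, 83.7 and 340 CPM. Cells of 1 library were compared here, so these intervals carry no replicate error.

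**Figure D2:**
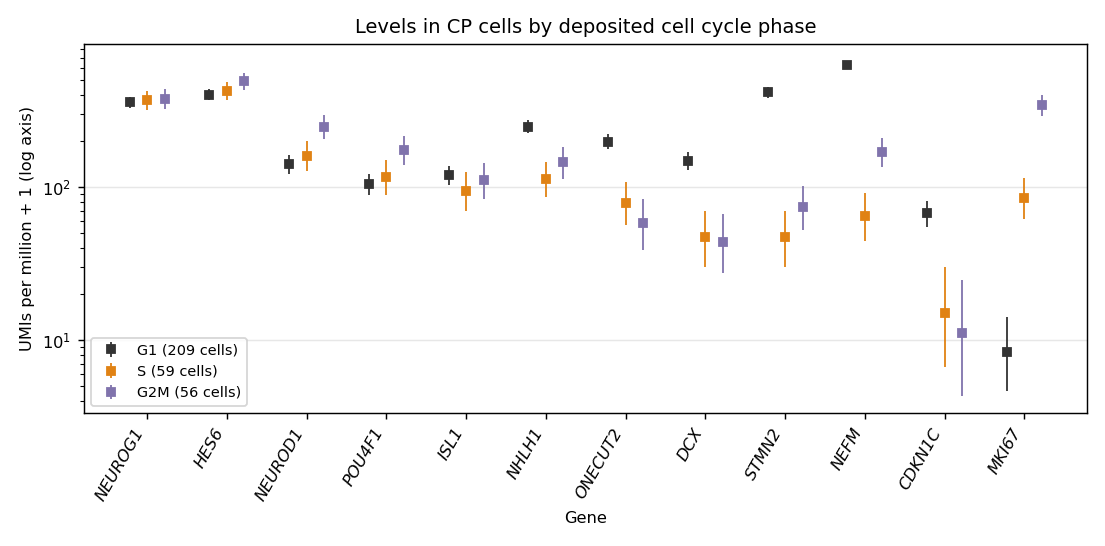
Level in CP cells (CPM + 1, log axis) of 12 genes by deposited cell cycle phase, with exact 95% Poisson intervals. NEUROG1 sits between 356 and 377 CPM in all 3 phases, while STMN2 is at 415 CPM in G1 and 45.8 CPM in S.

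The CP cells themselves were divided by clustering their log-normalized counts, which gave 5 subclusters of 78, 44, 86, 86 and 30 cells, numbered 0 to 4. The clustering used all of these genes, so the levels that follow describe the split and were not tested. The leading genes of subcluster 0 included FCRLA, APOC1, SSUH2, TMEM92, PDZRN3, SHD and MXRA8. It had 3.52 CPM of NEUROD1, from 2 UMIs, against 128 to 239 CPM in the other subclusters. Its level of NGFR was 259 CPM (218 to 304), against 39.6 to 89.0 CPM in the others. SOX10 was at 61.6 CPM, between the remaining CP subclusters and ENCCs. NEUROG1 was at 227 CPM and POU4F1 at 12.3 CPM. The 11 placode and sensory neuroblast markers summed to 193 CPM (159 to 233) there, against 572 to 2793 CPM in the other subclusters. The 8 crest markers summed to 1931 CPM (1818 to 2049), against 927 to 1327 CPM in the other subclusters and 2125 CPM in ENCCs.

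That subcluster also had the highest levels of DLL3 and MFNG among the 5, with DLL3 at 113 CPM (86.7 to 144) and MFNG at 153 CPM (123 to 189). Its 6 autonomic and enteric markers summed to 306 CPM (262 to 355), against 54.5 to 104 CPM in the other subclusters, with RET and HAND2 at 0 UMIs. Its cells had a median of 7100 UMIs, and 67 of 78 were in G1 and none in G2M.

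Subclusters 2 and 3 carried the placode and neurogenic genes together. Subcluster 2, with 81 of 86 cells in G1, had NEUROG1 at 514 CPM (459 to 574), ISL1 at 193 CPM (159 to 230.4), EYA2 at 55.0 CPM and HES6 at 584 CPM. It was led by SERTAD1, SCG2, FOXS1, USP18, SUSD2, SLC6A3, PPP1R14A and TMEM186. Subcluster 3 was led by CCNA2, NUSAP1, CEP55, CENPA, MKI67, PBK, PLK1 and RRM2, all genes of cycling cells, and had 53 cells in G2M and 31 in S. NEUROD1 was at 239 CPM (206 to 277) and POU4F1 at 169 CPM in these cycling cells. Subcluster 4 was led by FITM2, ZNF175, PLCH1, BST1, RP11-539I5.1, TLCD1, FBN2 and MUC12, each with 3 to 5 UMIs.

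Subcluster 1, the 44 cells with the highest sum of 6 neuronal markers, had 2875 CPM of them against 215 to 425 CPM in the others. STMN2 was at 1703 CPM (1560 to 1856) there against 28.1 to 129 CPM, and these cells held 76.1% of all STMN2 UMIs of CP. Its leading genes were PRPH, STMN4, RP11-834C11.4, TMEM176B, HOXB1, NRN1, CPLX3 and SST. NHLH1 was at 594 CPM, NEFM at 1481 CPM and NEUROG1 at 268 CPM. In these cells 43 of 44 were in G1, the median was 6260 UMIs and the ribosomal share 34.3%, against 39.7% to 44.9% in the other subclusters. The 6 NEP markers summed to 767 CPM against 23.4 to 42.3 CPM, through PAX6 at 467 CPM, WNT2B at 206 CPM and SFRP2 at 65.3 CPM, and the part of NEP RNA or of doublets in this was not tested.

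**Figure D3:**
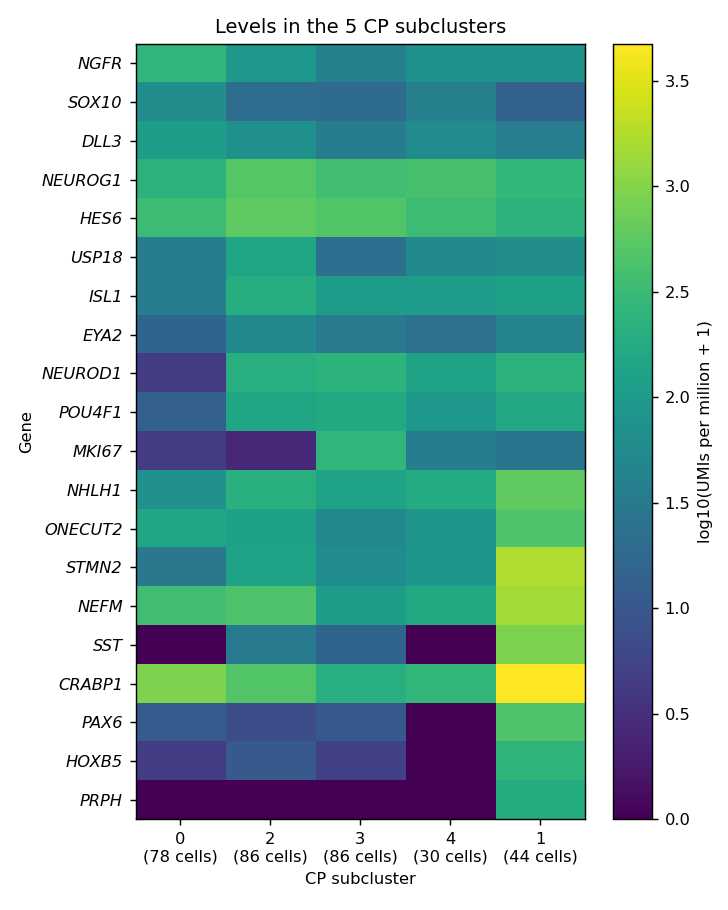
Level (log10 of CPM + 1) of 20 genes in the 5 CP subclusters, with the number of cells under each. NGFR, SOX10 and DLL3 are highest in subcluster 0, MKI67 in subcluster 3, and STMN2 (1703 CPM), PAX6, HOXB5 and PRPH in subcluster 1.

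The cells of subcluster 1 differed in which of these genes they held, and the gene sets overlapped. Of its 44 cells, 18 had an ISL1 UMI and 23 a PAX6 UMI, and 4 had both. Those 4 cells had 0 STMN2 UMIs and held 6854 to 15589 UMIs, where the median of the subcluster was 6260. No cell with an STMN2 UMI had both ISL1 and PAX6. STMN4, a stathmin of neurons, was seen in 18 cells, of which 4 had an ISL1 UMI. PRPH, the peripherin intermediate filament, was in 9 cells, of which 2 had an ISL1 UMI. By contrast SST, the neuropeptide somatostatin, was in 17 cells, 9 of them with an ISL1 UMI, and 13 of the 18 ISL1 cells had STMN2. Sets of several genes overlapped more. Of the 44 cells, 36 had a UMI of ISL1, POU4F1 or NEUROD1, 33 had one of PAX6, STMN4, HOXB5 or HOXB1, and 26 had both. With at least 2 genes of each set required, the counts were 18, 19 and 5. NEUROD1 was in 10 of the 18 STMN4 cells and in 9 of the 23 PAX6 cells, and POU4F1 in 7 of the 13 HOXB5 cells. These pairs were picked after their values had been seen, and UMIs of weakly detected genes miss many cells.

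To describe this, cells with ISL1 and neither PAX6 nor STMN4 (10 cells) were set beside cells with PAX6 or STMN4 and no ISL1 (22 cells), with 8 cells in both and 4 in neither. Cells of the first group held 6246 to 10563 UMIs and cells of the second 2986 to 12615 UMIs. The part that depth has in missed ISL1 UMIs was not tested. The first group had 382 CPM of NEUROD1 (263 to 537), 452 CPM of PPP1R17 (321 to 617) and 509 CPM of TFAP2B (370.2 to 684), and the second 138, 61.4 and 107 CPM. CRABP1, a retinoic acid binding protein of many hindbrain and spinal neurons, was at 266 CPM (169 to 399.6) in the first and 8840.1 CPM (8337 to 9366) in the second. PRPH, TAC1 and HOXB1 had 0 UMIs in the first, where 0 allows up to 42.7 CPM, and were at 246, 192 and 176 CPM in the second. There PRPH and TAC1 were each seen in 6 of the 22 cells. HOXB5, a more posterior HOX gene, was at 34.7 CPM from 3 UMIs in the first and 445 CPM (338 to 575) in the second. STMN2 was at 1169.5 CPM (953 to 1421) and 2348 CPM (2092 to 2627), so both held neuronal RNA.

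The same cells account for several CP values that look like features of the type as a whole. Of all CP UMIs, subcluster 1 held 89.4% of PAX6, 87.2% of HOXB5, 98.0% of HOXB1, 58.0% of CRABP1 and 100% of PRPH. SST was at 122 CPM in CP against at most 2.71 CPM elsewhere, yet was in 24 of 324 cells and 1 cell held 132 of its 305 UMIs. Without that cell it was at 69.1 CPM. NEUROG1, by contrast, was in 256 cells, and its 10 highest cells held 10.6% of its UMIs.

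**Figure D4:**
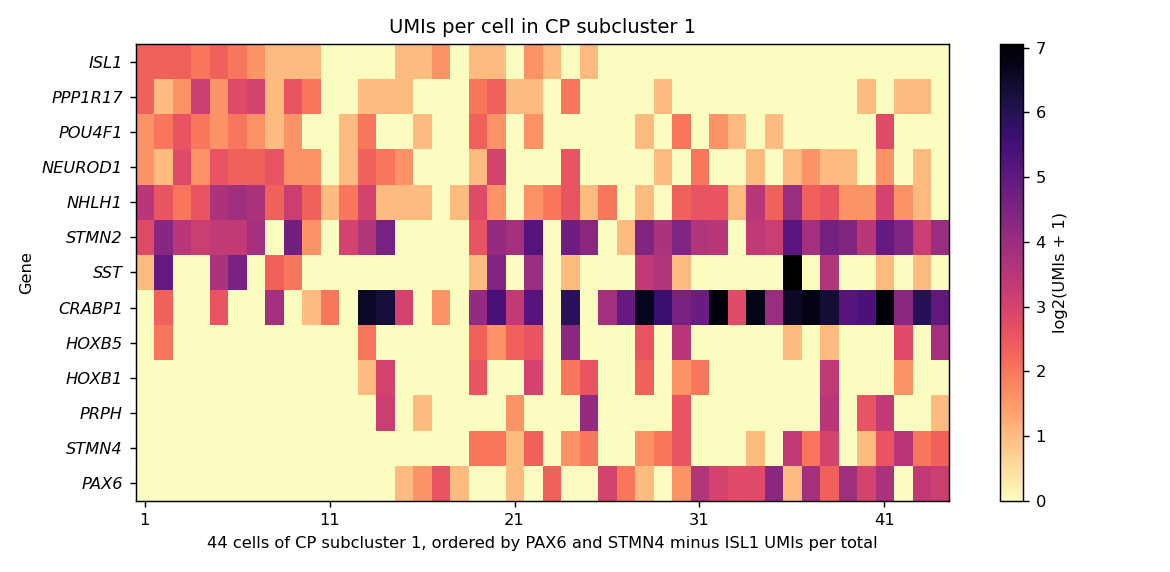
UMIs per cell (log2 of UMIs + 1, colour) of 13 genes in the 44 cells of CP subcluster 1, ordered by PAX6 and STMN4 minus ISL1 UMIs as a share of each cell's total. ISL1 by construction lies to the left and PAX6 and STMN4 to the right, and CRABP1, HOXB5 and PRPH lie mostly with the latter, while STMN2 and NHLH1 span the row.

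At day 15 the authors annotated 2 placode clusters, CP1 with 208 cells and CP2 with 43, in a separate library of other culture form. Levels are set side by side without comparison, as stage, library and culture cannot be told apart and the median cell had 11734.5 UMIs in CP1 and 9256 in CP2. NEUROG1 was at 362 CPM in day 10 CP, 20.9 CPM (15.5 to 27.6) in CP1 and 0 UMIs in CP2, where the floor of 3 UMIs is 7.46 CPM. HES6 was at 423, 65.7 and 34.8 CPM, MFNG at 75.4, 5.44 and 0 CPM and USP18 at 63.8, 3.35 and 0 CPM. For these 4 genes the day 10 cells had the largest values.

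NEUROD1 was at 164 CPM in day 10 CP, 529.6 CPM (501 to 559.6) in CP1 and 57.2 CPM (36.3 to 85.9) in CP2. ISL1 was at 112, 285 and 182 CPM. STMN2 was at 274, 1543 and 3304 CPM. SST was at 122, 7858 and 2868 CPM, and the day 15 ENCCs had 56.8 CPM of it. CRABP1 was at 997 CPM in day 10 CP, 18.0 CPM in CP1 and 5070 CPM in CP2, and PAX6 at 63.8, 0 and 381 CPM. PRPH was at 22.7, 67.0 and 744 CPM and HOXB5 at 34.3, 0.837 and 52.2 CPM. CP1 thus had more NEUROD1 and ISL1 and CP2 more PAX6 and CRABP1, genes that the 44 day 10 cells held side by side.

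**Figure D5:**
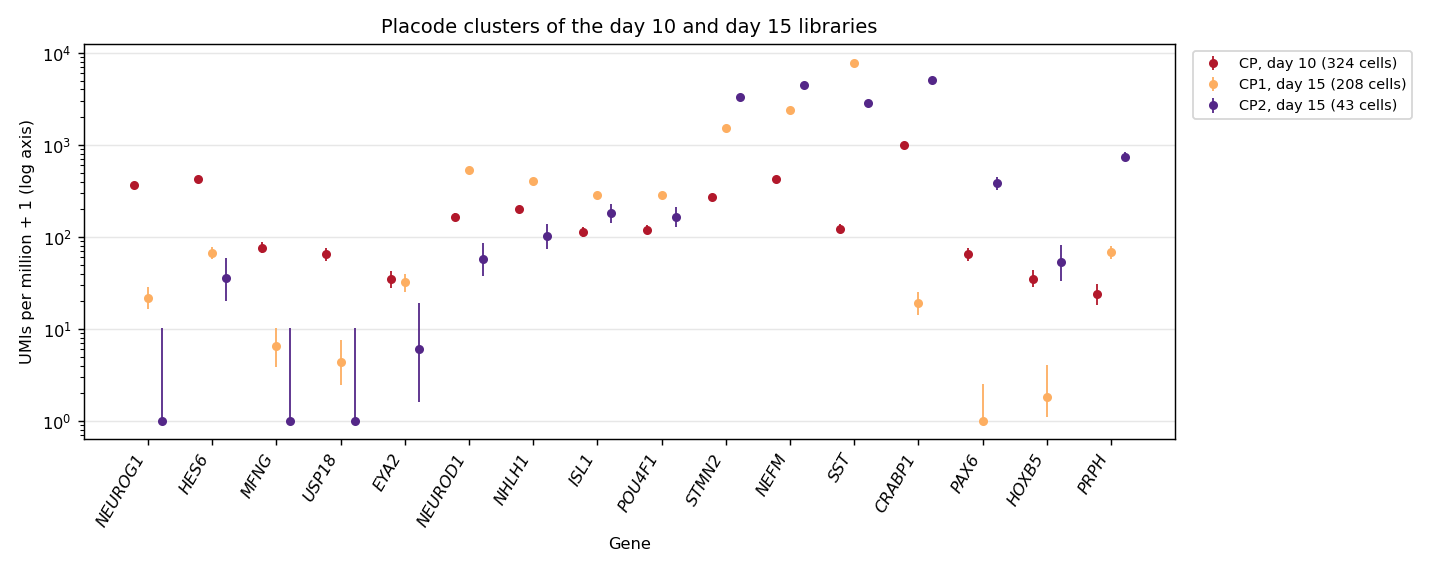
Level (CPM + 1, log axis) of 16 genes in day 10 CP and in the day 15 clusters CP1 and CP2, with exact 95% Poisson intervals. NEUROG1, HES6, MFNG and USP18 are highest in day 10 CP, NEUROD1 and ISL1 in CP1, and STMN2, CRABP1, PAX6 and PRPH in CP2.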

How the data were processed

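Single-cell libraries of day 10 and day 15 were analysed from the deposited UMI count tables (33694 genes) and cell metadata, in which the authors give counts per cell, the percent of mitochondrial and ribosomal UMIs, phase and cell type. The study's methods name kallisto and bustools, and the submitters' processing notes name Cell Ranger, Seurat 4.0.4 and GRCh38, so which tool made the counts is unsure, and the annotation is not given in the sources used here. At day 10 the authors kept cells with 1250 to 3500 genes, under 20000 UMIs and under 5% mitochondrial UMIs. Library totals were 70488169 UMIs at day 10 and 84976253 at day 15, and the CP cells held 2507282.

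Counts were summed per type and scaled to CPM, and log2 ratios used CPM + 1, which understates the change of low genes. Genes tested had a mean of at least 5 CPM over the 4 types. Shares were taken at 3000 UMIs per cell, leaving out 1 CP, 2 ENCC, 13 NEP and 4 NNE cells. Intervals are exact Poisson (CPM) and Clopper-Pearson (shares) at 95%, and the floor is 3 UMIs over a group. Removed cells were given to the type with the highest multinomial likelihood, which returned 94.1% of kept CP cells to CP. Subclusters used scanpy 1.11.5 (2000 variable genes, 15 neighbours, Leiden resolution 0.5).

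Genes could be named if in 1 of 30 fixed lists (1 of their genes, PRRXL1, was not matched), or, leaving out mitochondrial and ribosomal protein genes, as the 20 with the largest ratio of CP over the highest other type, the 10 with the smallest over the lowest, or the 8 leading each subcluster, with a UMI in at least 10% of cells. The members and lists were chosen with earlier results of these data known. Some genes that these rules select are not reported here. Alternatives covered the pseudocount, filter, scaling, phase, crest cells, doublets and depth. Python 3.11.15, numpy 2.4.6 and scipy 1.17.1 were used.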

Additional observations from a re-analysis of the deposited data

Results flagged for a closer look

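The removed cells of day 10 entered no comparison of cell types, and 72 of 2332 (3.09%, 2.42 to 3.87) had an expression profile closest to CP. They drew attention because they lay outside every comparison. The closest profile was found from all genes tested, including those given here. Neuronal levels above those of the other cell types therefore follow from the choice of these cells. STMN2 was at 1161 CPM (1052 to 1278) in the 72 cells and 274 CPM in kept CP cells, and NEUROD1 was at 199 CPM (155 to 251) and 164 CPM. NEFM was at 739 CPM against 424 CPM, CRABP1 at 3699 CPM against 997 CPM and PAX6 at 283 CPM against 63.8 CPM, while NEUROG1 was at 294 CPM against 362 CPM. Median depth was 3610 UMIs and 1244.5 genes in the 72 cells and 7438 UMIs and 2043.5 genes in kept CP cells. Of the 72, 37 had too few genes, 44 too high a mitochondrial share and 4 too many genes by the quality limits. The part that depth or damage has in these levels was not tested.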

How the results depend on the processing

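The count of 166 genes at least 2-fold above each other type moved beyond 1.5 times with the filter alone, to 66 of 4693 genes at a mean of at least 20 CPM and 467 of 22113 with no filter. It was 140 to 208 under the other alternatives, which shared 137 to 165 genes with it. The count of 80 genes below each other type was less stable. It was 11 with a pseudocount of 5 CPM, 22 at a mean of at least 20 CPM, 151 with no filter, 195 in G1 cells, 53 against numbered ENCC subclusters, 130 without CP cells with a SOX10 or FOXD3 UMI and 211 after thinning. Without subcluster 1 it was 174 and without subcluster 0 it was 112, 2 alternatives chosen after seeing the data. Of 360 values for the 30 genes named by size under 12 alternatives, 355 stayed past 2-fold and 0 reversed, and the 5 others were of PHLDB1 and ERLIN1, both among the lowest in CP. The share of CP cells with a marker UMI was 82.1% unthinned, 55.9% at 2000 UMIs and 39.9% with at least 2 UMIs required, against at most 3.17% in another type. Rescored phases gave 60.5% G1, and counting removed cells gave a CP share of 4.11%. The subcluster with the highest neuronal level had 130 cells at resolution 0.3, 38 at 1.0 and 35 with 1000 variable genes, holding 44, 32 and 35 of the 44 cells. Cells of 1 pooled library are not replicates, and genes with few UMIs in 324 cells limit every call of absence. No paired analysis was possible because each stage has 1 library and no result comes from a test.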
